A study of Mus musculus with 3 samples.

Results

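The genes encoding NMDA-type glutamate receptor subunits were examined in nuclei of the mouse lumbar spinal cord. The members were 6 subunit genes, Grin1, Grin2a, Grin2b, Grin2c, Grin2d and Grin3a. They were taken by symbol from the 31040 genes of the UMI (unique molecular identifier) table, and all 6 were present. The list was made with earlier results of these data known, and subunit genes outside it were not examined. Single-nucleus RNA sequencing (10x, v3 chemistry) had been run on 12 mice aged 90 days, 6 SOD1G93A (B6.Cg-Tg(SOD1*G93A)1Gur/J) and 6 wild type littermates (WT, C57BL/6J), with 3 females and 3 males of each genotype. SOD1G93A mice carry many copies of a mutant human SOD1 transgene under its own promoter and are a model of amyotrophic lateral sclerosis (ALS), in which lower motor neurons are lost. No other allele or treatment is named for the groups. Hashtags allowed 4 mice to be loaded together in each of 3 pools (A, B and C), namely a female and a male per genotype, and the SOD1G93A and WT mice that shared both sex and pool are called a pair below (6 pairs). Each hashtag antibody marked the same combination of sex and genotype in all 3 pools. Within a sex, hashtag and genotype therefore cannot be told apart.

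NMDA receptors are cation channels made of 4 subunits that open when glutamate and a co-agonist, glycine or D-serine, are bound and when depolarization has relieved a magnesium block. The obligatory subunit GluN1 (Grin1) binds the co-agonist, the GluN2 subunits (Grin2a to Grin2d) bind glutamate and set the kinetics and the strength of the magnesium block, and GluN3A (Grin3a) binds glycine and gives channels with less calcium permeability. In the spinal cord these receptors act in sensory transmission in the dorsal horn and in the locomotor circuits of the ventral horn, and excess activation is a known route of injury to motor neurons.

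The genes, all on the minus strand of the GRCm38 (mm10) genome (GENCODE vM21 annotation), differ greatly in length, which matters for nuclear RNA because intronic reads are counted. Grin2a (chr16:9567898-9995560) and Grin2b (chr6:135713233-136173511) span 428 and 460 kb (460.279), Grin3a (chr4:49661611-49845744) spans 184 kb, Grin2d (chr7:45831883-45878378) 46.5 kb, Grin1 (chr2:25291181-25319187) 28.0 kb and Grin2c (chr11:115249169-115267243) 18.1 kb. Other annotated genes overlap 5 of them. Whether strand was used in counting is not given in the sources used here. Without it, reads of the shared stretches cannot be told apart, and with it this holds only for genes of the same strand. The longest overlaps were those of Grin2b with Gm14329 (11442 bases) and Gm14330 (9288 bases), of Grin1 with Grin1os (7706 bases), of Grin2d with Kdelr1 (5607 bases) and Gm45441 (3367 bases) and of Grin3a with Ppp3r2 (3278 bases), of which only Ppp3r2 lies on the same strand as the subunit gene.

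The table held 14662 nuclei and 206486779 UMIs, with 548 to 2259 nuclei and 6411715 to 36668441 UMIs per mouse. Reads at the mouse Sod1 symbol, to which transgene reads may also be assigned, were at 31.2 to 106 UMIs per 1000000 UMIs (CPM) over all nuclei of WT mice and at 174 to 594 CPM in SOD1G93A mice, with no overlap. The study's cell type labels were checked against marker genes. Nuclei labelled motor neuron had a mean of 154.99 CPM Chat (acetylcholine synthesis) and 87.4 CPM Prph (a motor neuron intermediate filament) against 5.13 and 1.73 CPM in other neurons, oligodendrocyte precursors (OPCs) had 123 CPM Pdgfra against 2.05 CPM in neurons, and astrocytes had 939 CPM Aqp4 against 12.4 CPM. For the label Microglia the markers were mixed, with high neuron genes beside Cx3cr1 and P2ry12 above their level in neurons. For the label Schwann_Meningeal the neuron marker Snap25 was high. The nuclei labelled Microglia (223 nuclei) held 64.5% to 65.5% of the neuronal level of the neuron genes Rbfox3, Snap25 and Syt1 at a median of 46927 UMIs per nucleus, with 33.0 CPM Cx3cr1 and 49.7 CPM P2ry12, against 10.5 and 42.0 CPM of these microglial genes in neurons. The nuclei labelled Schwann_Meningeal (1031 nuclei, median 1584 UMIs) held 427% of the neuronal level of Snap25. As a percentage of neurons, Grin1 there was below Snap25 in 12 of 12 mice but above Rbfox3 in 9 and above Syt1 in 8. The 3 neuron markers thus did not stand alike in these nuclei. Both are therefore called by their label only. Doublets within a mouse were not marked, and 15 barcodes occurred in more than 1 pool.

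Levels are given as CPM of a cell type within a mouse (the mean ± SD over 12 mice, unless stated). Cell types had been clustered and named with genes that include Grin1, so levels across types are a description without a test. Fewer expressing nuclei and less RNA per nucleus cannot be told apart in such sums.

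Grin1, Grin2a, Grin2b and Grin2d were highest in neurons and motor neurons, Grin3a was as high in motor neurons and OPCs as in neurons, and Grin2c was the only subunit highest in astrocytes. Grin1, the obligatory subunit, was at 329.6 ± 24.3 CPM in the 8800 neurons and at 237 ± 52.8 CPM in the 67 motor neurons, and it was higher in neurons in 12 of 12 mice. Grin2a, a GluN2 subunit of fast kinetics, was at 719.7 ± 47.1 CPM in neurons and 631 ± 135 CPM in motor neurons, with neurons higher in 10 of 12 mice. Grin2b is a GluN2 subunit of slower kinetics and the one most known from the immature nervous system. It was at 574 ± 33.4 CPM in neurons and 574 ± 120.3 CPM in motor neurons. Neurons were higher in 5 of 12 mice, so these neighbours did not differ beyond their spread over the joined genotypes. The motor neuron mean of WT mice alone lay above this neuron level, and that of SOD1G93A mice below it. Those means are given with the genotype tests, and the order of the cell types within a genotype was not tested. Grin2d, the GluN2 subunit with the slowest decay, was at 48.5 ± 5.27 CPM in neurons and 38.7 ± 15.1 CPM in motor neurons, with neurons higher in 9 of 12 mice. The ratio of Grin2a to Grin2b UMIs was 1.26 ± 0.07 in neurons and 0.43 ± 0.14 in astrocytes, so the balance of these subunits differed between the cell types by more than its spread over mice.

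Grin3a had a different order. It was at 418 ± 76.7 CPM in motor neurons (range 241 to 528), 371 ± 107 CPM in OPCs (range 225 to 541) and 347 ± 30.5 CPM in neurons (range 283 to 413). Motor neurons were above neurons in 10 of 12 mice and above OPCs in 9 of 12, while OPCs were above neurons in 6 of 12 mice, so that these 3 cell types could not be ordered with certainty. Each mouse gave 1 to 11 motor neurons. Neurons were above the nuclei labelled Microglia in 12 of 12 mice.

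Grin2c, a GluN2 subunit with a weak magnesium block, was at 56.7 ± 20.98 CPM in the 1555 astrocytes (range 27.1 to 90.8, 580 UMIs). In neurons it was at 2.76 ± 0.53 CPM (range 1.82 to 3.58, 408 UMIs) although neurons held the most UMIs. The next cell type was OPCs at 7.21 ± 6.64 CPM, and astrocytes were above OPCs, oligodendrocytes, neurons, endothelial cells and the nuclei labelled Microglia and Schwann_Meningeal in 12 of 12 mice, and above motor neurons, which held 14 UMIs of the gene, in 11 of 12. The median ratio of astrocytes to neurons was 19.5 (range 12.6 to 36.2). When each nucleus was thinned to 2000 UMIs, at least 1 Grin2c UMI was found in 168 of 1479 astrocytes (11.4%, Wilson 95% interval 9.84 to 13.1%), in 44 of 8703 neurons (0.506%) and in 0.776% of oligodendrocytes. The intervals cover counting error only, and without thinning the shares were 26.7% (median 5338 UMIs), 3.42% (median 12864.5 UMIs) and 3.33% (median 5786 UMIs). The share in astrocytes was thus above that of neurons and oligodendrocytes, taken here as the background that free RNA can give. The subunits in ependymal nuclei (93) and fibroblasts (46) rested on at most 28 UMIs each and were not tested.

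**Figure D1:**
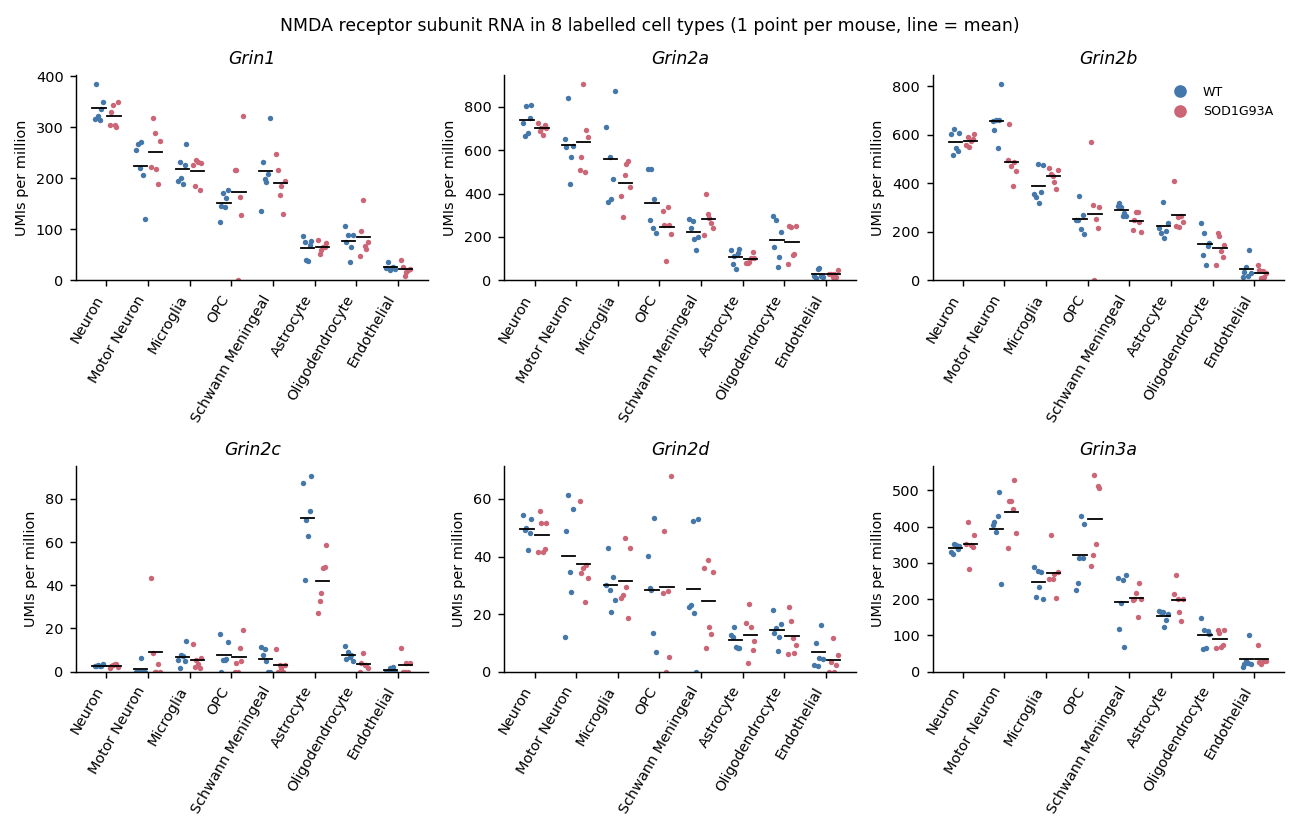
Level of each subunit (CPM, the subunit's UMIs per 1000000 UMIs of the cell type in that mouse) in 8 labelled cell types. Each point is 1 mouse (blue, WT; red, SOD1G93A) and each line the mean. Grin2c is highest in astrocytes (mean 56.7 CPM) and near 0 in neurons (2.76 CPM), whereas the other 5 subunits are high in neurons and motor neurons, and Grin3a also in OPCs.

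The subunits were also counted outside neurons, and these levels were set beside those of neuron genes in the same nuclei, as a percentage of the level in neurons of the same mouse. In the nuclei labelled Microglia, Grin1 stood at 65.5 ± 7.0%, Grin2a at 69.1%, Grin2b at 71.3 ± 7.9%, Grin2d at 63.3% and Grin3a at 74.9 ± 11.6%, close to the 64.5 to 65.5% of Rbfox3, Snap25 and Syt1. In oligodendrocytes, Grin1, Grin2a, Grin2b, Grin2d and Grin3a stood at 24.4 to 27.8%, beside 21.5% for Rbfox3, 22.5% for Syt1 and 36.1% for Snap25. These 5 subunits and the neuron markers therefore stood at similar percentages in the nuclei labelled Microglia. In oligodendrocytes the 5 stood a little above the means of Rbfox3 and Syt1. Grin1, Grin2a and Grin2d were below Snap25 there in 12 of 12 mice, and Grin2b and Grin3a in 11. The part of neuronal RNA in these nuclei was not tested. Grin2c, which is low in neurons, stood apart, at 233 ± 182% of its neuronal level in the nuclei labelled Microglia (84 UMIs) and 205 ± 137% in oligodendrocytes (103 UMIs), above all 3 markers in 11 of 12 mice in each. Neuron markers cannot show RNA of astrocytes, where Grin2c was highest, and the part of such RNA here was not tested.

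In OPCs and astrocytes, some of the other subunits stood apart from neuron markers. In OPCs, Grin3a stood at 108 ± 36.4% of the neuronal level (range 67.9 to 192%), beside 48.8% for Rbfox3, 52.9% for Snap25 and 38.1% for Syt1, while Grin1, Grin2a, Grin2b and Grin2d stood at 41.6 to 59.1%. Grin3a was above Snap25 and Syt1 in 12 of 12 mice and above Rbfox3 in 11 of 12. In thinned OPCs, 101 of 178 nuclei (56.7%) held a Grin3a UMI, against 44.1% of neurons and 7.46% of oligodendrocytes (unthinned, 91.7%, 80.8% and 21.2%, with a median of 10016 UMIs in OPCs).

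In astrocytes, Grin1 stood at 19.6 ± 4.7% and Grin2a at 14.1 ± 3.5% of the neuronal level, near Rbfox3 (16.6 ± 6.2%) and Syt1 (19.2 ± 4.0%). Grin2b (43.1 ± 11.1%) and Grin3a (50.6 ± 10.4%) were above Rbfox3 and Syt1 in 12 of 12 mice, but above Snap25 (56.5 ± 28.9%) in only 5 and 6 of 12. In sub-cluster 1 of the study's 5 astrocyte sub-clusters, where neuron genes were lowest (Rbfox3 2.6%, Syt1 7.0%, Snap25 22.8%), Grin2b stood at 29.0 ± 8.4% and Grin3a at 31.9 ± 14.2%, both above Rbfox3 and Syt1 in 12 of 12 mice and above Snap25 in 8 and 9 of 12. Grin1 there stood at 8.2% and Grin2a at 4.2%.

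**Figure D2:**
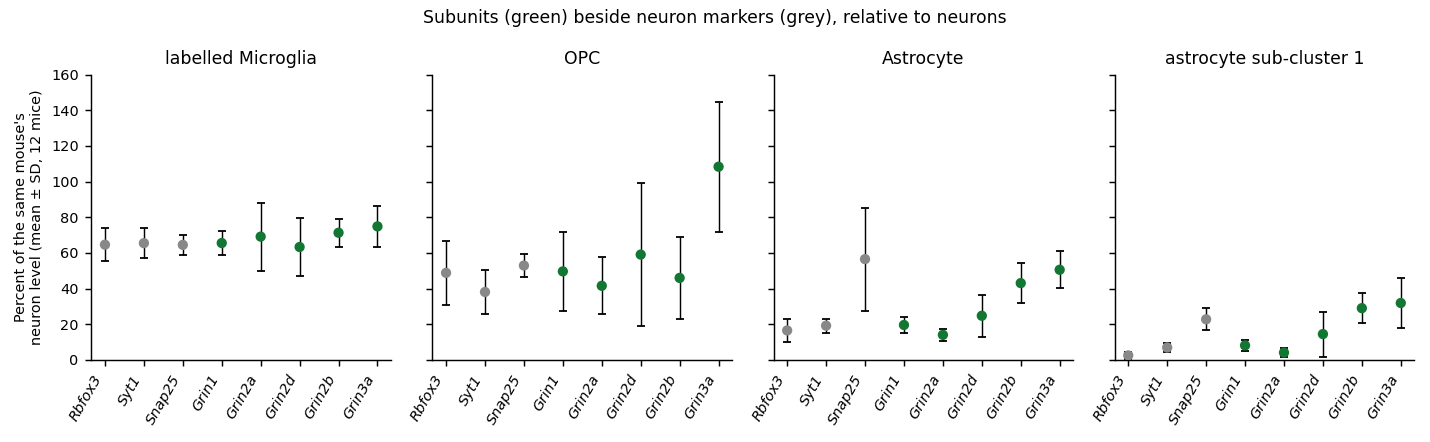
Level of neuron marker genes (grey) and of the subunits other than Grin2c (green) in nuclei labelled Microglia, in OPCs, in all astrocytes and in astrocyte sub-cluster 1, as a percentage of the level in neurons of the same mouse (points, mean over 12 mice; error bars, SD). The points lie at similar heights in the nuclei labelled Microglia, whereas Grin3a in OPCs (108%) and Grin2b and Grin3a in astrocyte sub-cluster 1 (29.0 and 31.9%) rise above Rbfox3 and Syt1.

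The subunits were compared with each other only per length. Per kb of gene, which suits unspliced RNA, the order in neurons was Grin1 (11.8 ± 0.87 CPM per kb), Grin3a (1.88), Grin2a (1.68), Grin2b (1.25), Grin2d (1.04) and Grin2c (0.153), and every step held in 12 of 12 mice except Grin3a over Grin2a (10 of 12). Per kb of exon, the order began with Grin2a (40.1 CPM per kb) and Grin1 (34.0), followed by Grin3a (28.3), Grin2b (23.1), Grin2d (7.28) and Grin2c (0.547). The place of Grin1 above or below Grin2a thus depended on the length used, while Grin2d and Grin2c were lowest by either. In astrocytes, Grin2c was first per kb of gene (3.14 CPM per kb, above Grin1 at 2.30 in 8 of 12 mice) and stood second per kb of exon (11.3), where Grin3a at 14.3 was above it in 7 of 12 mice. Neither order of these neighbours exceeded the spread over mice.

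Neurons had been divided by the study into 9 groups by dorsoventral position and transmitter. Dorsal excitatory neurons (DE, 3089 nuclei) had 116 CPM of the vesicular glutamate transporter gene Slc17a6 against 11.8 CPM in dorsal inhibitory neurons (DI, 1589 nuclei), and DI had 114 CPM of Gad1, a GABA synthesis gene, against 7.87 CPM in DE. The other groups were mid excitatory (ME, 198 nuclei) and inhibitory (MI, 542), ventral excitatory (VE, 1317) and inhibitory (VI, 496), ventral cholinergic other than motor neurons (VC, 350), ventral mixed (VM, 176) and neurons that had not been assigned (1016).

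Grin3a was high in excitatory and low in inhibitory dorsal neurons. It was at 598 ± 52.2 CPM in DE (range 528 to 698) and 169 ± 22.4 CPM in DI (range 127 to 208), and DE was above each of the other 8 groups in 12 of 12 mice. The median ratio of DE to DI was 3.46 (range 2.79 to 4.62), and that of DE to ME, the next group at 364 ± 70.3 CPM, was 1.63. DI was below every other group in 12 of 12 mice, with the exception of VM (11 of 12). The ratio of Grin3a to Grin1 UMIs was 2.10 in DE and 0.52 in DI, so that excitatory and inhibitory neurons of the dorsal horn differed in Grin3a relative to the obligatory subunit as well. Per kb of exon, Grin3a (48.7 CPM per kb) stood beside Grin2a (47.7) in DE, with Grin3a higher in 7 of 12 mice, whereas in DI Grin3a was at 13.8 and Grin2a at 47.3.

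Grin2a was highest in the 2 dorsal groups, and Grin2b was highest in DE, with VM above DI in 7 of 12 mice. Grin2b was at 747 ± 45.1 CPM in DE and 606 CPM in DI, and DE was above every other group in 12 of 12 mice except VM (660.2 CPM, 11 of 12). The lowest Grin2b level was 446 CPM in VI. Grin2a was at 855 ± 99.7 CPM in DE and 848 ± 93.0 CPM in DI, with DE higher in 7 of 12 mice, and each was above MI, VE, VI and the unassigned neurons (594 to 646 CPM) in 12 of 12 mice. VC was next at 713 CPM, with DI above it in 8 of 12 mice, and ME and VM were at 684 and 642 CPM. For Grin2a, excitatory and inhibitory dorsal neurons therefore did not differ beyond their spread.

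Grin1 was not highest dorsally. It was highest in VE at 388 ± 20.0 CPM (with TMMwsp scaling ME was higher, at 409.9 against 392 CPM) and was at 288 CPM in DE and 259 CPM in VC, and VE was above DE, DI, MI, VC and the unassigned neurons in 12 of 12 mice, above VM in 11, and above ME and VI in 10. Grin2d varied little, from 43.2 CPM in DE to 58.1 CPM in MI. Grin2c was at 5.25 ± 1.57 CPM in DI, 1.28 CPM in DE and 1.01 CPM in VE, with DI above both in 12 of 12 mice, but VC (5.12 CPM) did not differ from DI (DI higher in 6 of 12 mice) and ME held 2 UMIs in all, under the floor of 3.

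**Figure D3:**
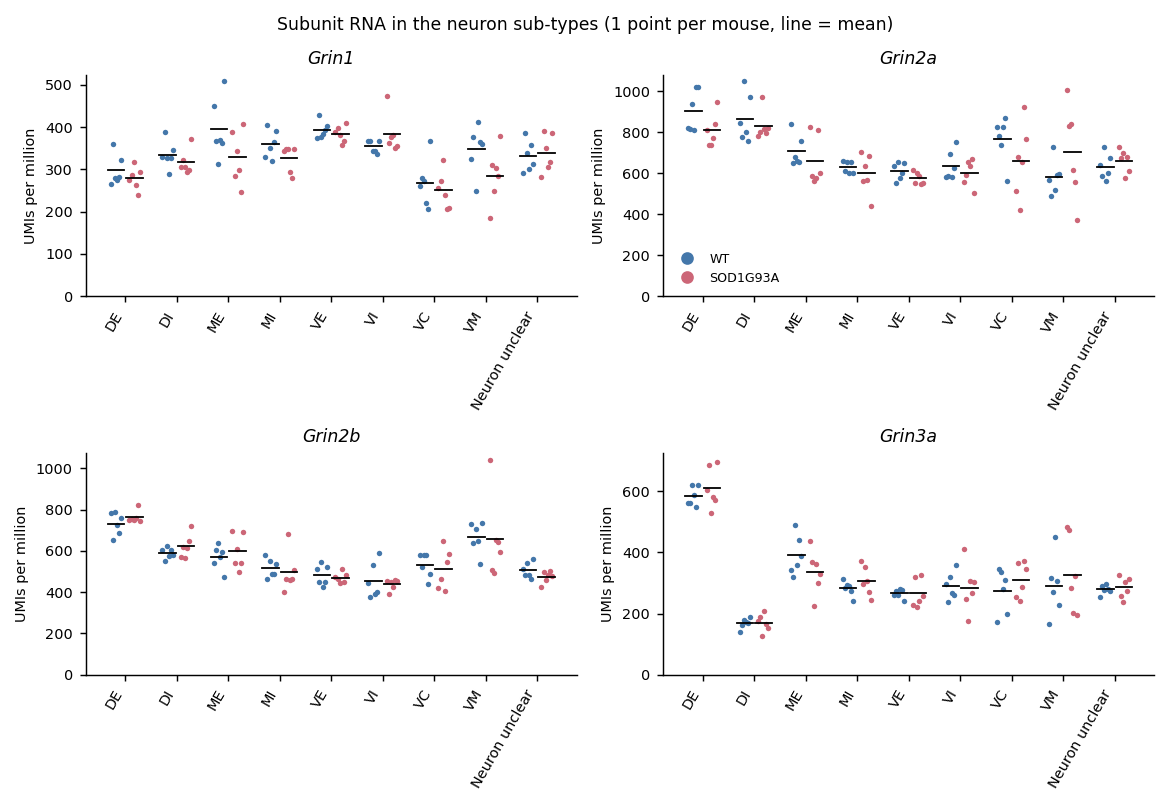
Level (CPM) of Grin1, Grin2a, Grin2b and Grin3a in 9 neuron sub-types, with 1 point per mouse (blue, WT; red, SOD1G93A) and a line at the mean. Grin3a separates DE (528 to 698 CPM) from DI (127 to 208 CPM) without overlap, whereas Grin2a is alike in both and Grin1 is highest in VE.

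Astrocyte sub-clusters, numbered 0 to 4 by the study (524, 438, 220, 195 and 178 nuclei), also differed in their subunits. Grin2c was at 76.6 ± 21.2 CPM in sub-cluster 0 and 86.8 ± 28.4 CPM in sub-cluster 1, against 45.4, 8.95 and 27.9 CPM in sub-clusters 2, 3 and 4, and both 0 and 1 were above 3 in 12 of 12 mice. Sub-cluster 1 was above sub-cluster 0 in 8 of 12 mice, so that pair was not ordered. Grin3a was highest in sub-cluster 3 at 301 ± 122 CPM, above sub-cluster 1 (110.2 CPM) in 12 of 12 mice and above the others in 9 to 11. Sub-cluster 2 had the highest Grin2b (456 CPM) and Grin1 (152 CPM) together with the highest Rbfox3 and Syt1 (47.0 and 58.4% of the neuronal level), and the part of neuronal RNA in these values was not tested.

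The genes with the most similar pattern were sought over 18 cell types and neuron sub-types (mean log2(CPM + 1) of the 6 WT mice, 14062 genes), as a description. The points share libraries and depth, and with 1 large contrast between neurons and glia most neuronal genes correlate. Grin1 was closest to Svop, Shank1 and Rbfox3 (Pearson r 0.995, 0.992 and 0.992), Grin2a to Fgf12, Dpp6 and Lmtk3 (0.988, 0.986 and 0.985), Grin2b to Lmtk3, Gnaz and Slc9a7 (0.991, 0.988 and 0.987) and Grin2d to Gm15155, Ptchd1 and Grip2 (0.989, 0.988 and 0.988). Grin2c stood with Elovl2, Lgr6 and Atp13a4 (0.917, 0.916 and 0.909), and Grin3a with Fam155a, Ppp2r2b and Nalcn (0.901, 0.897 and 0.891). The subunits of the neuronal pattern had nearer neighbours than Grin2c and Grin3a.

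The effect of the SOD1G93A genotype was tested per cell type over mice with limma-voom and the pool as a term, with Benjamini-Hochberg adjustment over all genes of the cell type (FDR) and a call at FDR below 0.1. Of 41 tests of subunits with enough UMIs (6 subunits in astrocytes, neurons and oligodendrocytes, and 4 or 5 in the other 5 cell types), 1 was called, Grin2c in astrocytes. Among all genes, 2.29% of 9347 were called in astrocytes (0.909% as lower in SOD1G93A), 3.07% of 5118 in motor neurons and 0.0393% of the tests in the other 6 cell types. At an unadjusted p below 0.05, 4 of the 41 tests passed, beside 7.18% of the tests of all genes. No subunit was called in the 9 neuron sub-types (0 of 46 tests against 0.0252% called among all genes, and 1 at an unadjusted p below 0.05 against 4.54%) or within the 5 astrocyte sub-clusters (0 of 19 tests against 0.0595%, and 2 at an unadjusted p below 0.05 against 6.07%). The count of 0 in neuron sub-types was found under all 20 alternative settings, which include edgeR and DESeq2.

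**Figure D4:**
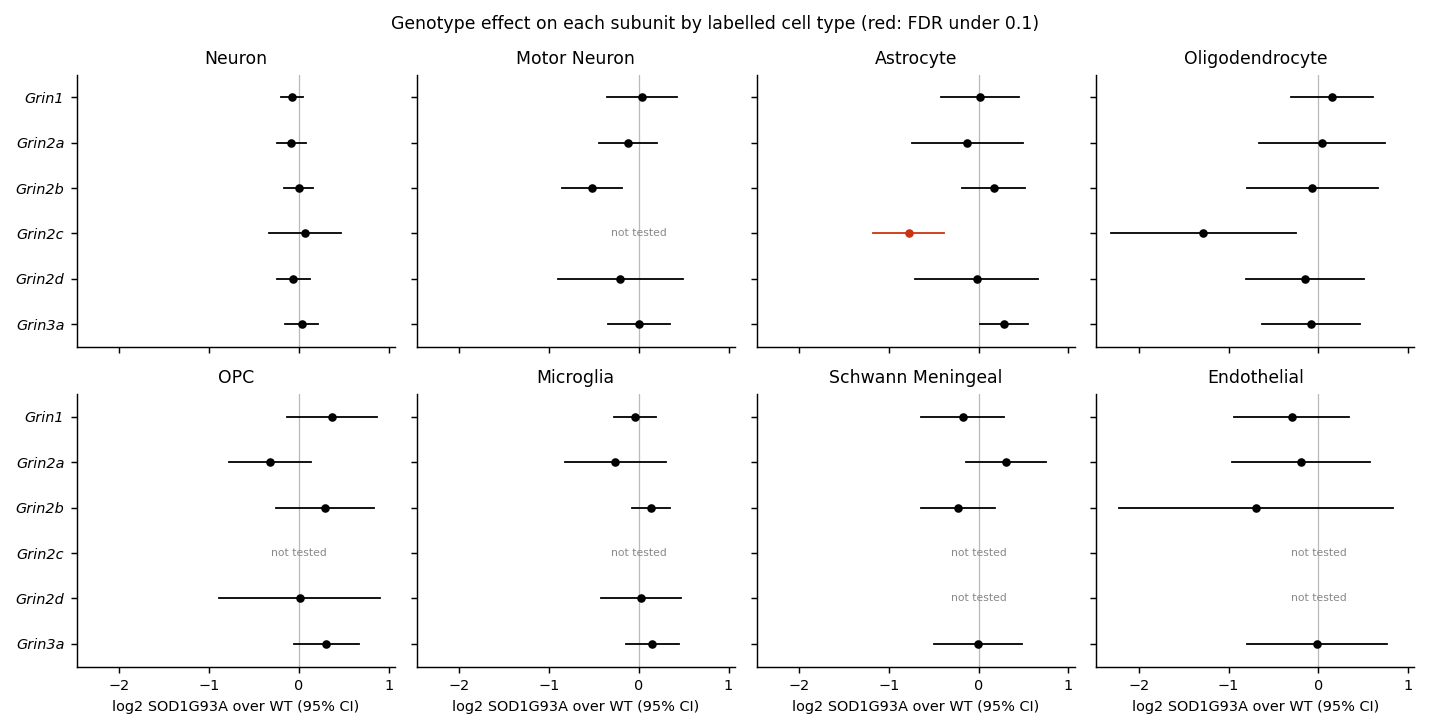
Genotype effect (log2 of SOD1G93A over WT) of each subunit in 8 labelled cell types, as points with 95% intervals from limma-voom; red marks FDR below 0.1. Grin2c in astrocytes (−0.78) is the only red point, and the intervals in neurons are the narrowest.

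Grin2c was lower in astrocytes of SOD1G93A mice. In WT astrocytes it ranged from 42.7 to 90.8 CPM (median 72.4, mean 71.4 ± 17.6, n = 6) and in SOD1G93A astrocytes from 27.1 to 58.8 CPM (median 42.3, mean 42.0 ± 11.9, n = 6). The groups overlapped only through the female WT mouse of pool B (42.7 CPM), which lay below the 3 SOD1G93A males (48.1 to 58.8 CPM), and the SOD1G93A females were the lowest mice at 27.1, 32.6 and 36.4 CPM. The log2 fold change was −0.78 (SE 0.19, 95% interval −1.17 to −0.38, limma-voom FDR = 0.0404). Grin2c was lower in the SOD1G93A mouse of 6 of 6 pairs (exact two-sided sign-flip permutation test, p = 0.03125, the smallest that 6 pairs can give). That test used the same mice and values as the fit, so it is no separate support. Among the other subunits in astrocytes its smallest p was 0.0625 (Grin3a). Without the pool term, which also removes the block that pairs the mice, the change was −0.74 with FDR = 0.121 and the call was lost, as it was when 1 of 4 mice was left out (the female SOD1G93A or WT mouse of pool C, the male SOD1G93A mouse of pool A or the male WT mouse of pool C, with FDR up to 0.138). The share of thinned astrocytes with a Grin2c UMI was 12.8% (113 of 880) in WT and 9.18% (55 of 599) in SOD1G93A. These shares join the nuclei of all mice of a genotype and give no spread over mice. Before thinning, a mouse gave 45 to 250 astrocyte nuclei, so some mice weigh more than others.

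Of the sub-clusters in which Grin2c was high, sub-cluster 1 made up a smaller share of SOD1G93A astrocytes and sub-cluster 0 did not. Sub-cluster 0 held 30.5% of WT and 35.6% of SOD1G93A astrocyte nuclei. Sub-cluster 1 held 36.9% of WT astrocyte nuclei (26.9 to 42.6% by mouse) and 14.7% of SOD1G93A astrocyte nuclei (4.81 to 21.6%), whereas sub-cluster 3 held 9.35% and 18.9% and sub-cluster 4 held 7.53% and 17.6%. Of the 580 Grin2c UMIs, 236 were in sub-cluster 0 and 237 in sub-cluster 1. Within sub-cluster 0, Grin2c was at 79.5 ± 28.4 CPM in WT and 73.6 ± 12.8 CPM in SOD1G93A. The fitted log2 fold change there was 0.09 (limma-voom FDR = 0.982), so the means and the fit went in opposite directions. Within sub-cluster 1, Grin2c was at 98.5 ± 26.7 and 75.1 ± 27.0 CPM, with a fitted change of −0.25 (FDR = 0.933). The fold change was −0.18 over both together (95% interval −0.59 to 0.23, FDR = 0.845), while over sub-clusters 2 to 4 together, which held 70, 14 and 23 of the UMIs, it was −1.70 (FDR = 0.389). In sub-cluster 2, which had too few UMIs of the gene to be tested alone, Grin2c was at 61.5 ± 24.9 CPM in WT and 29.3 ± 25.7 CPM in SOD1G93A and was lower in the SOD1G93A mouse of 6 of 6 pairs, against 4 pairs in sub-cluster 0, 5 in sub-cluster 1, 2 in sub-cluster 3 and 4 in sub-cluster 4. When each mouse was given the same sub-cluster shares, the mean of the 6 paired log2 ratios moved from −0.77 to −0.40 (range −0.92 to −0.09). With equal shares, Grin2c was at 66.8 ± 17.7 CPM in WT and 50.1 ± 10.0 CPM in SOD1G93A, lower in 6 of 6 pairs (exact sign-flip permutation test, p = 0.03125). These weights were chosen after the data were seen, so this p-value is no separate support either. The weights also raise the part of sums that hold very few UMIs. Sub-cluster 4 of the WT male of pool C held 1 UMI in 3 nuclei (106 CPM). Sub-cluster 2 of the SOD1G93A female of pool C also held 1 UMI in 3 nuclei (76.8 CPM). The fall over all astrocytes thus came with a smaller share of sub-cluster 1 and larger shares of sub-clusters 3 and 4, and a smaller paired difference was left at equal shares. Whether the sub-clusters had themselves been separated by genes that change with genotype was not tested.

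Summed marker levels in the same nuclei are given beside this result, without a test, and the ranges of the genotypes overlapped for each list. The summed level of oligodendrocyte markers was 1005 to 1522 CPM in WT astrocytes and 1405 to 2764 CPM in SOD1G93A astrocytes, that of neuron markers 563 to 913 and 602 to 1379 CPM, and that of astrocyte markers 6058 to 7746 and 6949 to 9224 CPM. Their part in the Grin2c result was not tested. Without sub-cluster 2, which had the highest Rbfox3 and Syt1 while Snap25 was highest in sub-cluster 4, the log2 fold change was −0.69 (limma-voom FDR = 0.0629), and without the 5% of nuclei with the most UMIs it was −0.62 (FDR = 0.0778).

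**Figure D5:**
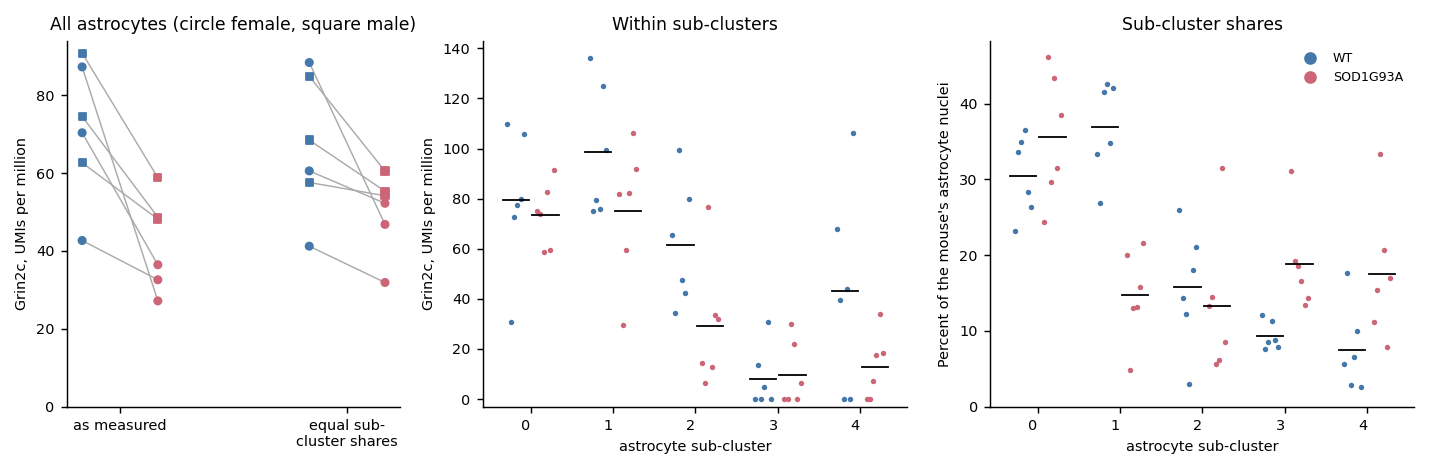
Grin2c in astrocytes. Left, CPM per mouse as measured and with equal sub-cluster shares, with lines joining pairs (circles, female; squares, male; blue, WT; red, SOD1G93A); middle, CPM per mouse within each sub-cluster; right, percentage of each mouse's astrocyte nuclei in each sub-cluster. The SOD1G93A mouse is the lower one in 6 of 6 pairs in both parts of the left panel, and sub-cluster 1 holds 14.7% of SOD1G93A against 36.9% of WT nuclei.

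The other 5 subunits were not called in astrocytes. Grin1, Grin2a and Grin2d had log2 fold changes of 0.02, −0.12 and −0.02 (FDR = 0.984, 0.893 and 0.986, limma-voom). Grin2b was at 0.17 (SE 0.16, FDR = 0.709). Grin3a was at 0.28 (SE 0.13, FDR = 0.333), with a mean of 153 ± 17.7 CPM in WT and 197 ± 44.3 CPM in SOD1G93A and a higher value in SOD1G93A in 5 of 6 pairs. With equal sub-cluster shares, Grin3a was at 159 ± 21.3 CPM in WT and 172 ± 30.0 CPM in SOD1G93A, lower in SOD1G93A in 2 of 6 pairs. The mean of its paired log2 ratios moved from 0.34 to 0.10.

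Motor neurons were few, with 1 to 11 nuclei per mouse. Grin2b ranged from 545 to 808 CPM in WT motor neurons (median 659, mean 659 ± 85.7) and from 388 to 643 CPM in SOD1G93A motor neurons (median 479, mean 489 ± 85.0). It was lower in the SOD1G93A mouse of 5 of 6 pairs, and the groups overlapped. The log2 fold change was −0.52 (SE 0.16, 95% interval −0.86 to −0.18), which did not pass (limma-voom FDR = 0.115). It passed without the 5% of nuclei with the most UMIs (−0.50, FDR = 0.0758), with no filter on low counts (−0.64, FDR = 0.0689) and on leaving out 1 of 3 mice (the female WT mouse of pool B, the male SOD1G93A mouse of pool B or the male WT mouse of pool A), so the result lay near the threshold. The SOD1G93A female of pool C had 1 motor neuron and that of pool A had 2. Grin1, Grin2a, Grin2d and Grin3a had log2 fold changes of 0.04, −0.12, −0.20 and 0.0012 in motor neurons, and Grin2c had too few UMIs to be tested.

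In neurons every subunit had a log2 fold change within 0.084 of 0 in either direction, each with FDR = 1.0 (limma-voom). The 95% interval was −0.20 to 0.05 for Grin1 and −0.16 to 0.16 for Grin2b, so larger changes of these subunits over all neurons lay outside the intervals. Among sub-types, the smallest p was that of Grin2a in DE, which was at 811 to 1019 CPM in WT and 737 to 947 CPM in SOD1G93A and lower in 6 of 6 pairs, with a log2 fold change of −0.17 (FDR = 0.708). In oligodendrocytes, Grin2c was at 7.75 ± 2.43 CPM in WT and 3.45 ± 2.97 CPM in SOD1G93A, lower in 6 of 6 pairs, with a log2 fold change of −1.28 (FDR = 0.981). Neither passed the threshold.

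No subunit was called between female and male mice (0 of 41 tests against 0.159% called among all genes, and 4 at an unadjusted p below 0.05 against 5.56%), nor for a sex by genotype interaction (0 of 41 against 0.0058%, and 0 at an unadjusted p below 0.05 against 3.11%). The largest sex differences of these 4 were −0.52 for Grin3a in OPCs (female minus male, log2, FDR = 0.260, limma-voom) and −0.48 for Grin2c in astrocytes (FDR = 0.810). The genotype effect on Grin2c in astrocytes was −0.94 in females (FDR = 0.389) and −0.62 in males (FDR = 0.298), and the difference between the sexes, 0.32, did not pass (unadjusted p = 0.411, limma-voom).

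Genes whose products work with the receptor were examined as a list of 52 in 4 roles. The list was chosen with earlier results of these data known, so its shares and medians are no test of the list. In astrocytes 43 could be tested, of which 2 were higher and 3 lower in SOD1G93A, beside 2.29% called over all genes, with a median log2 fold change of 0.11 beside 0.015 over all genes tested. Of 7 genes that handle the co-agonists, 1 was higher and 2 were lower, with a median log2 fold change of −0.33. Of 15 scaffold genes 1 was lower (median 0.03), and of 12 kinases, phosphatases and effectors none was called (median 0.18). Of 9 trafficking and surface partners 1 was higher (median 0.29). In motor neurons 1 of 33 was called (higher), a share close to the 3.07% called over all genes, with a median of −0.075 beside 0.002 over all genes tested. In neurons, with 52 tested, none was called, nor were any in OPCs, oligodendrocytes or the nuclei labelled Microglia, or within the astrocyte sub-clusters.

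Of the 3 called genes of co-agonist handling in astrocytes, Slc7a10 and Srr fell and Slc38a1 rose. Slc7a10 (Asc-1, a transporter of D-serine and glycine) fell from 265 ± 40.6 CPM in WT to 188 ± 31.5 CPM in SOD1G93A, a log2 fold change of −0.57 (SE 0.12, limma-voom FDR = 0.0136), and was lower in 6 of 6 pairs although the groups (206 to 306 and 126 to 213 CPM) overlapped. Srr (serine racemase, which makes D-serine) fell by 0.61 on the log2 scale (FDR = 0.0692), from 73.9 ± 12.5 to 52.5 ± 9.41 CPM, and was lower in 4 of 6 pairs. Slc38a1, a transporter of glutamine and other neutral amino acids, rose by 0.51 (FDR = 0.0524), from 124 to 239 CPM in WT mice to 250.2 to 428 CPM in SOD1G93A mice, without overlap and in 6 of 6 pairs.

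Among the other partners, Homer2, a postsynaptic scaffold gene, fell by 0.72 in astrocytes (FDR = 0.0653, limma-voom) and was lower in 6 of 6 pairs. Neto2, an auxiliary subunit of kainate receptors related to the NMDA receptor partner Neto1, rose by 0.70 in astrocytes (FDR = 0.0589), from 52.1 ± 7.49 to 89.5 ± 25.6 CPM, in 5 of 6 pairs. Within sub-clusters 0 to 4 the log2 fold change of Slc7a10 was −0.22, −0.39, −0.54, 0.68 and −0.05 (FDR 0.637 to 0.997, limma-voom), so the gene was not called inside any sub-cluster, and the direction in sub-cluster 3 was the opposite. That of Slc38a1 was 0.02, 0.65, 0.22, 0.0040 and 0.12, likewise with no call. In motor neurons Dapk1, a death-associated kinase known to act on GluN2B, rose by 1.60 (SE 0.37, FDR = 0.0459, limma-voom), with 11.9 to 52.6 CPM in WT, 0 to 107 CPM in SOD1G93A and 148 UMIs in all, and was higher in 4 of 6 pairs. The next smallest p in motor neurons belonged to Rasgrf2, a Ras exchange factor, at 1.11 (FDR = 0.134).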

How the data were processed

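Nuclear RNA of flash-frozen lumbar cord was measured, after perfusion with buffered saline. Mice with an altered transgene copy number had not been enrolled. The authors counted UMIs with Cell Ranger 3.1 on an mm10 pre-mRNA reference, which includes introns, removed poor nuclei and those without a clear hashtag, and deposited raw counts per nucleus (unit counts) with cell type labels made in Seurat 4.0.3. The authors' normalized, integrated values were not used here. Coding sequences of the members and some marker genes are not reported here. The counts were summed per mouse and labelled type, and the mouse was the replicate. The 6 members, the 52 partner genes and the marker lists were chosen with earlier results of these data known, and the named genes were the members, the partners called in any unit (or the 2 of smallest p in astrocytes and in motor neurons) and the 3 genes most like each member.

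Tests used limma 3.58.1 and edgeR 4.0.16 in R 4.3.3 (filterByExpr with a minimum count of 10, TMMwsp, voom, robust eBayes, groups of sex and genotype plus pool, Benjamini-Hochberg over all genes of a unit, FDR 0.1). Pairing comes from the pool and sex labels. Alternatives were edgeR and DESeq2 1.42.0, TMM, a minimum count of 30 or none, no pool term, units of 10 or more nuclei, and leaving out each mouse. The changes in nuclei and sub-cluster weights were chosen after seeing the data. In simulated data for astrocytes (9073 genes), 75.3% of genes changed by a log2 of 1 and 100% of those changed by 2 were found, with 8.5% false calls, and for motor neurons (4849 genes) 56.7%, 99% and 11.5%. The simulated data held no effect of pool or sex, and genes were drawn independently. These rates cover genes of all levels and do not give the rate for genes of few UMIs such as Grin2c.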

Additional observations from a re-analysis of the deposited data

Results flagged for a closer look

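Within groups of 6 mice, 6 of 82 groups of subunit levels held 1 mouse far from the others by Dixon's criterion, which chance meets in about 1 of 20 groups. Of these, 4 were in endothelial nuclei, where the subunits were low: Grin1 was at 35.2 CPM in the female WT mouse of pool B (38 nuclei, 14 UMIs, the other WT mice 20.8 to 25.7 CPM), Grin2b at 126 CPM in the male WT mouse of pool B (40 nuclei, others 14.5 to 54.8 CPM), Grin3a at 101 CPM in that same male (others 12.1 to 28.4 CPM) and Grin3a at 72.1 CPM in the female SOD1G93A mouse of pool A (21 nuclei, 13 UMIs, others 20.6 to 29.3 CPM). The same SOD1G93A female had 411 CPM Grin2b in astrocytes (45 nuclei, 121 UMIs, others 221 to 266 CPM) and 59.4 CPM Grin2d in motor neurons (2 nuclei, 11 UMIs, others 24.1 to 36.9 CPM). No called result rests on these values.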

How the results depend on the processing

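The count of subunits called for genotype over the cell types was 1, and it was 2 with no filter on low counts, 0 with no replicate block (no pool term), 2 when mice with fewer than 10 nuclei of a type were left out, and 0 to 2 when 1 mouse was left out. Leaving out the nuclei labelled Microglia and Schwann_Meningeal could not change it, since each cell type was fitted on its own. Over the astrocyte sub-clusters the count of 0 became 1 with no filter (Grin3a in sub-cluster 1, −0.85, FDR = 0.0341, limma-voom), and 0 to 1 when 1 mouse was left out (Grin3a in sub-cluster 4, called on leaving out the female of either genotype in pool B). For sex the count of 0 became 1 without mice of under 10 nuclei (Grin2a in nuclei labelled Microglia, −0.75, FDR = 0.00124) and 0 to 1 when 1 mouse was left out (Grin3a in OPCs, on leaving out the WT male in pool B).

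Grin2c in astrocytes was −0.74 (FDR = 0.121) with no replicate block, −0.96 to −0.66 (FDR 0.00553 to 0.138) when 1 mouse was left out, −0.84 with edgeR (FDR = 0.0258), −0.86 with DESeq2 (FDR = 0.0537), −0.18 in sub-clusters 0 and 1 and −1.70 in sub-clusters 2 to 4. The share of astrocytes with a Grin2c UMI was 6.38% at 1000 UMIs and 21.3% at 4000. The highest group changed for Grin3a when levels were averaged over nuclei (OPCs 459 CPM, motor neurons 400.4 CPM) and, with TMMwsp factors, for Grin1 (ME 409.9, VE 392 CPM), Grin2b (motor neurons 633, neurons 577 CPM), Grin2c among sub-types (VC 5.41, DI 5.32 CPM) and Grin2d (ependymal 65.5, neurons 48.7 CPM). Small uncalled changes turned sign: in astrocytes Grin1 (−0.040 with edgeR, −0.051 with DESeq2, −0.22 to 0.15 leaving out 1 mouse), Grin2a (−0.41 to 0.019) and Grin2d (0.020 with edgeR, 0.014 with DESeq2, −0.27 to 0.37), in motor neurons Grin1 (−0.11 with no filter, −0.039 without the top 5% of nuclei, −0.11 to 0.18), Grin3a (−0.0034 with edgeR, −0.13 with no filter, −0.17 without the top 5%, −0.10 to 0.063) and Grin2d (−0.39 to 0.070), and Grin2c in sub-cluster 0 (−0.17 to 0.23). Sub-cluster 1, ependymal cells, fibroblasts, motor neurons and VM could not be fitted with 10 or more nuclei per mouse. The cause of these changes was not tested.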
